A study of Mus musculus with 6 samples.

Results

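The sebaceous gland lipid genes are 10 genes, Awat1, Awat2, Dgat2l6, Far2, Scd1, Scd3, Elovl3, Fa2h, Soat1 and Mgst1, taken by symbol from a table of 57010 genes. Each symbol matched 1 row. RNA sequencing was done on mouse skin in 2 groups of 3 libraries, CON and MOD, with levels given as TPM (a gene's length-corrected share of a library's transcripts). CON is labelled wild type and Control. MOD is labelled experiment type and IMQ, for imiquimod, a Toll-like receptor 7 agonist that causes psoriasis-like inflammation when put on mouse skin, here 62.5 mg a day on shaved back skin for 6 days. Before blood was taken, all mice were injected with atropine and zoledronic acid, per the series' design text. The sources used here do not give strain, sex, age or how control skin was handled. The labels do not say that each library is a separate mouse, and p-values then reflect library-to-library spread, which may be technical. In whole skin, fewer cells of a type and less RNA per cell cannot be told apart.

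Sebaceous glands sit beside hair follicles and empty into the hair canal. Their cells, sebocytes, fill with lipid droplets and then burst, releasing sebum, which in mice is rich in waxes, sterol esters and triglycerides. The 10 genes cover steps of that synthesis. Elovl3 lengthens fatty acids, Scd1 and Scd3 put a double bond into them, Fa2h hydroxylates them, and Far2 reduces them to fatty alcohols. Awat1 and Awat2 join fatty alcohols to fatty acids as waxes, and Dgat2l6 encodes a related acyltransferase. Soat1 esterifies cholesterol. Mgst1, a membrane-bound glutathione transferase, is a marker of sebocytes rather than a step of lipid synthesis. Several have other users in skin: Scd1 is strong in fat cells, Soat1 is used by macrophages and Fa2h by myelinating Schwann cells.

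The related acyltransferase genes Awat2, Dgat2l6 and Awat1 lie close together on chromosome X, and Scd3 lies in a cluster with Scd2, Scd4 and Scd1 on chromosome 19. Since Awat1, Awat2 and Scd3 were the genes that fell in MOD, the RefSeq promoter windows (250 bases before to 50 after a start site, GRCm38.p6, written 5′ to 3′ on the gene's strand) of these genes and of Dgat2l6 are shown. The submitters name another build, GRCm39, for the deposited table. Capitals mark a CCAAT box (CCAAT or its reverse complement) or a GC box (GGGCGG or its reverse complement).
Awat1, chrX:100571997-100572296, plus strand: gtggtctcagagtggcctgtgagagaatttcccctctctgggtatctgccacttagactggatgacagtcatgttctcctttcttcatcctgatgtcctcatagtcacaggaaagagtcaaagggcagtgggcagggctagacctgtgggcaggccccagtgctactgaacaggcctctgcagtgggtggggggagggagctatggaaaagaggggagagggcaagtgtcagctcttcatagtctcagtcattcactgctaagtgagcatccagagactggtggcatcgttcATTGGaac
Awat2, first listed start, chrX:100412538-100412837, minus strand: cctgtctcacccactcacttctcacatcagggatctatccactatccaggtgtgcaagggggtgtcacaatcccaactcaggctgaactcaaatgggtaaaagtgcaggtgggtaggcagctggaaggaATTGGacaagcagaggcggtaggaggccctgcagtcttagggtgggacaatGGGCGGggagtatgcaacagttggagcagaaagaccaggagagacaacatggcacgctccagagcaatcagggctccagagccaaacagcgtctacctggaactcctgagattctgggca
Awat2, second listed start, chrX:100442668-100442967, minus strand: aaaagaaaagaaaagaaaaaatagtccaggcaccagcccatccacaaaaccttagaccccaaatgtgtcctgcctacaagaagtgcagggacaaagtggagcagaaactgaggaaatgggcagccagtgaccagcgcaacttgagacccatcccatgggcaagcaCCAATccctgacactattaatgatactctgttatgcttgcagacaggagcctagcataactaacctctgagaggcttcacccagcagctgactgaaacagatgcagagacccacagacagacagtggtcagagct
Dgat2l6, chrX:100524588-100524887, plus strand: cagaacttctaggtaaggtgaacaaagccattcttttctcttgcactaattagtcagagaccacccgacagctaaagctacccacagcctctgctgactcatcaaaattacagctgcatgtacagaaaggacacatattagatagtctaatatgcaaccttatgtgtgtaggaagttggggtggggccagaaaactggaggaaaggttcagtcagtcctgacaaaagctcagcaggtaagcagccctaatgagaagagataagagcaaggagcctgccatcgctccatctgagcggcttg
Scd3, chr19:44203038-44203337, plus strand: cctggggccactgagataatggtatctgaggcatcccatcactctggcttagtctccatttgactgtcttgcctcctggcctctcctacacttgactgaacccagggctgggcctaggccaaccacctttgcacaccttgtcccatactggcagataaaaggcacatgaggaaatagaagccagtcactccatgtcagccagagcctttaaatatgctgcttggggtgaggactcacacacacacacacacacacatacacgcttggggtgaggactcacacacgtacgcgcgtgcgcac

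The Awat1 window and both Awat2 windows hold a CCAAT box, a motif found in 37.4% of all 32851 promoter windows on either strand. The first Awat2 window also holds a GC box, found in 35.7%. The Dgat2l6 and Scd3 windows hold neither, and none of the 5 windows holds a TATA box (TATAAA, 13.6%), an E-box (CACGTG, 7.15%), a nuclear receptor half-site (AGGTCA, 16.3%), a sterol response element core (TCACNCCAC, 1.24%) or a direct repeat of that half-site 1 base apart (0.0396%). The motifs do not overlap in these windows. Of the 10 genes, 7 had a window in the table. The windows not shown belong to Far2, Soat1 and Mgst1, which were not called lower. That of Soat1 holds a CCAAT box and a GC box, and those of Far2 and Mgst1 (first listed start) hold GC boxes only. A match is only a match of letters, and a missing match says only that these letters are not in this window.

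All 10 genes were detected in all 6 libraries. The sebocyte receptor gene Mc5r, which was not among the 10, was above 3.8 TPM in every library. The basal keratinocyte markers Krt5 and Krt14 stood between 1132 and 3057 TPM. Transcripts of both kinds were thus present, but they do not show which cells the RNA of the 10 genes came from. All 10 met the filter for testing (at least 1 TPM in at least 3 libraries), 9 of them in all 6 libraries; Dgat2l6 was below 1 TPM in MOD 3. H2-Ea, an MHC class II gene, was listed at 194 and 162 TPM in CON 1 and CON 3 and at 0 in CON 2 and all MOD libraries, a split that cannot be told apart from part of the difference between groups. A fit with a term for it rests on CON 2 as the control. MOD 2 stood apart from MOD 1 and MOD 3 in these 10 genes, as described below, so results are also given without it. That choice was made from the values of these same genes. The p-values without MOD 2 therefore give no independent support for a fall.

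Of the 10 genes, 3 fell in MOD and 0 rose (limma, two-sided, Benjamini-Hochberg adjusted p below 0.05 over 15323 tested genes). At an unadjusted p below 0.05 in the same limma fit, 5 were lower and 0 higher. Among all tested genes 36.1% were lower and 12.5% higher, so 3 of 10 is close to the background. Groups did not overlap for the same 3 genes, all with MOD below, against 44% of all tested genes with MOD below and 15.5% with MOD above. The median log2 difference of the 10 was -1.19, against -0.31 over all tested genes. Without MOD 2, 7 of the 10 were lower and 0 higher, where 26.9% of tested genes were lower and 9% higher. Without MOD 1 or without MOD 3, 1 of the 10 was lower and 0 higher, where 3559 and 4745 of the tested genes were lower. With the H2-Ea term 1 was lower and 0 higher, where 17.9% of tested genes were lower and 4.35% higher. Under median-of-ratios scaling, which moves the median of all tested genes from -0.31 to 0.00, 2 were lower and 0 higher, against 18.7% and 20.2% of tested genes.

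Awat2, 1 of the wax acyltransferase genes, had the smallest adjusted p of the 10. It stood at 43.6, 23.9 and 42.2 TPM in CON 1 to 3 and at 2.53, 8.71 and 4.01 TPM in MOD 1 to 3. Every control lay above every MOD library, with MOD 2 the closest to them. Its mean fell 7.19-fold, from 36.6 ± 10.99 to 5.08 ± 3.23 TPM (SD over 3 libraries a group). On the log2 scale this was -2.71 (SE 0.41; adjusted p = 0.0034 in limma). Awat2 kept its call under all 16 alternatives, with adjusted p from 0.0027 to 0.038.

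Awat1 stood at 67.9, 98.6 and 73.1 TPM among the controls and at 13.4, 55.3 and 14.1 TPM in MOD. MOD 2 lay near the controls and the other MOD libraries far below them. The mean fell 2.89-fold, from 79.9 ± 16.4 to 27.6 ± 24.0 TPM, or -1.79 in log2 (SE 0.52; adjusted p = 0.028 in limma). The call was lost under 9 of 16 alternatives, among them median-of-ratios scaling (adjusted p = 0.063), the H2-Ea term (0.088), each control left out in turn (0.055 to 0.071) and MOD 1 or MOD 3 left out (0.091 and 0.082), in a range of 0.0046 to 0.091. Without MOD 2 the log2 difference was -2.44 (adjusted p = 0.0046).

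Dgat2l6, the acyltransferase gene related to Awat1 and Awat2, was the least abundant of the 10 in CON. It stood at 12.3, 9.94 and 4.74 TPM among the controls and at 2.12, 6.59 and 0.81 TPM in MOD, so MOD 2 lay above CON 3. The log2 difference was -1.43 (SE 0.56, limma adjusted p = 0.071), and -1.99 without MOD 2 (adjusted p = 0.021). Summed over Awat1, Awat2 and Dgat2l6, CON libraries held 124, 132 and 120 TPM and MOD libraries 18.1, 70.6 and 18.9 TPM. The sums of the controls lay closer together than their values for any 1 of the genes, and MOD 2 lay between the controls and the other MOD libraries.

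Gene order on chromosome X, from the RefSeq annotation, is Awat2, Otud6a, Igbp1, Dgat2l6, Awat1. Otud6a was at most 0.10 TPM in any library. Igbp1, which encodes a phosphatase-binding protein, lay between these acyltransferase genes and fell far less, from 78.0, 84.8 and 74.3 TPM to 52.8, 63.5 and 52.3 TPM (log2 difference -0.49, limma adjusted p = 0.020).

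Far2 supplies the fatty alcohols for wax. It stood at 125, 224 and 240 TPM among the controls and at 44.8, 169 and 58.8 TPM in MOD. MOD 2 lay inside the control range, and MOD 1 and MOD 3 lay below it. The log2 difference of -1.29 (SE 0.51) did not pass (limma adjusted p = 0.073). It was -1.86 without MOD 2 (adjusted p = 0.013).

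Scd3, a desaturase gene, stood at 53.1, 33.4 and 195 TPM among the controls and at 5.63, 20.6 and 6.39 TPM in MOD. CON 3 held 5.85 times the Scd3 of CON 2, the widest spread among controls of the 10 genes. The mean fell 8.63-fold, from 93.8 ± 88.2 to 10.9 ± 8.44 TPM, or -2.81 in log2 (SE 0.72; adjusted p = 0.018 in limma). With the H2-Ea term it was -1.75 and did not pass (adjusted p = 0.18, the highest of a range from 0.015). The call was also lost without MOD 1 (0.067), without MOD 3 (0.057) and without the filter on low values (0.052).

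Scd1, the main desaturase of skin and the gene disrupted in asebia mice, whose sebaceous glands are stunted, was the most abundant of the 10. It stood at 928, 2033 and 1266 TPM among the controls and at 1520, 2661 and 1144 TPM in MOD. The groups overlapped, with the highest value in MOD 2 and the lowest in CON 1. The log2 difference was 0.32 (SE 0.39, limma adjusted p = 0.53), -0.02 without MOD 2 and -0.29 with the H2-Ea term, so no direction held. Scd1 and Scd3 can exchange reads: 14.4% of the 31-base words of Scd3 transcripts in GENCODE M21 also occur in other genes, most often in Scd1, and 8.14% of those of Scd1. For the other 8 genes the share was at most 1.36%. In the cluster, Scd2, a desaturase of wide expression, fell from 144, 176 and 135 TPM to 82.1, 115 and 102 TPM (log2 difference -0.61, adjusted p = 0.025), and Scd4 was at most 0.58 TPM.

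Elovl3, the elongase of sebocytes and brown fat, stood at 128, 195 and 128 TPM among the controls and at 70.4, 262 and 70.3 TPM in MOD. MOD 2 was the highest of all 6 libraries and the other MOD libraries the lowest. The log2 difference was -0.43 (SE 0.51, limma adjusted p = 0.52) and -1.06 without MOD 2 (adjusted p = 0.020). Fa2h stood at 129, 395 and 381 TPM among the controls and at 72.5, 287 and 95.2 TPM in MOD. CON 1 lay far below the other controls, between MOD 3 and MOD 2. Its log2 difference was -1.09 (SE 0.62, limma adjusted p = 0.19) and -1.68 without MOD 2 (adjusted p = 0.049).

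Soat1 and Mgst1 had the smallest differences in size. Soat1 stood at 42.5, 74.9 and 52.2 TPM among the controls and at 37.9, 94.0 and 36.2 TPM in MOD (on the log2 scale -0.12, SE 0.40, limma adjusted p = 0.82). Mgst1 stood at 622, 842 and 860 TPM among the controls and at 603, 1042 and 443 TPM in MOD (-0.23, SE 0.32, limma adjusted p = 0.57). In both, MOD 2 was the highest of the 6 libraries. Neither passed without MOD 2 (adjusted p = 0.13 and 0.096), and both turned positive under median-of-ratios scaling (0.23 and 0.12).

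**Figure D1:**
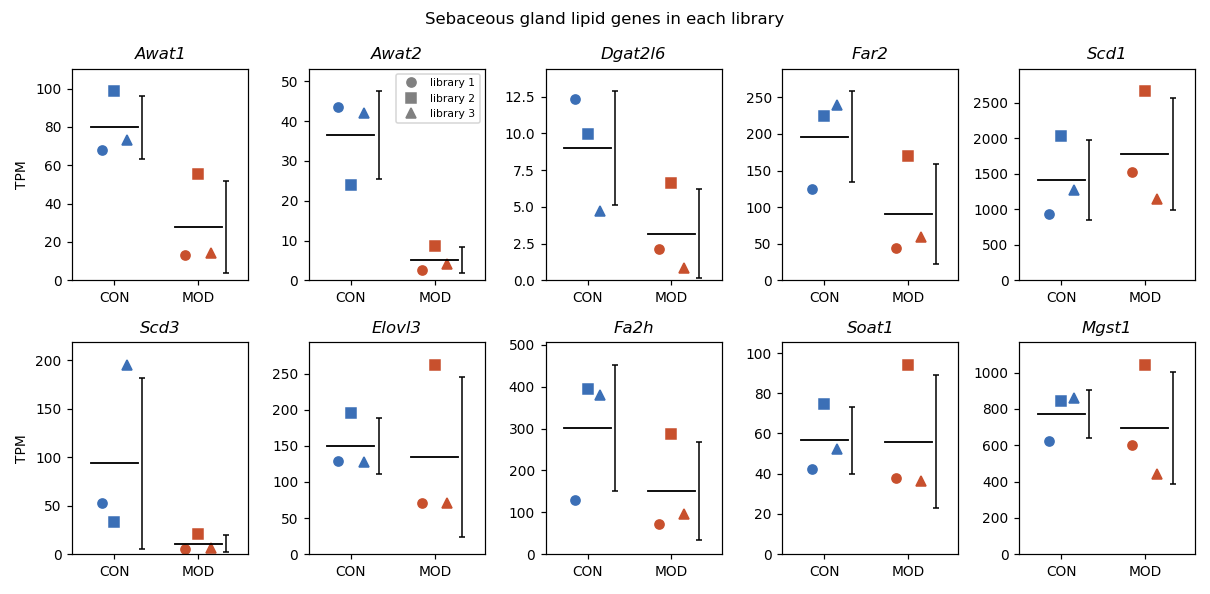
TPM of the 10 genes in each library (y axis, linear from 0), with CON in blue and MOD in red, 1 symbol per library number, a line at the group mean and a bar of ± 1 SD (n = 3). Awat1, Awat2 and Scd3 have all MOD libraries below all CON libraries, and MOD 2 (red square) is the highest MOD library in all 10 panels.

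**Figure D2:**
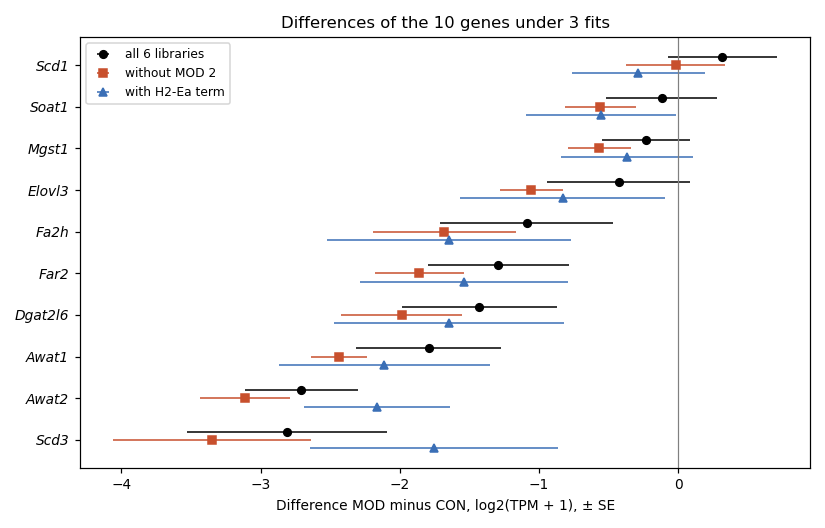
Difference MOD minus CON in log2(TPM + 1) for each gene, ± SE, with all 6 libraries (black), without MOD 2 (red) and with a term for the H2-Ea split (blue). Scd3 and Awat2 lie at -2.81 and -2.71 with all libraries and Scd1 at 0.32.

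In all 10 genes MOD 2 was the highest MOD library, which was so for 34.5% of tested genes. MOD 2 was at least 1.5 times the higher of MOD 1 and MOD 3 in all 10, against 3.76% of tested genes, and at least 2 times in 8, against 1.57%. These thresholds were chosen after the values were seen, and with 1 library on a side there is no test. The ratio of MOD 2 to the mean of MOD 1 and MOD 3 was 4.50 for Dgat2l6, 4.02 for Awat1, 3.72 for Elovl3, 3.43 for Scd3, 3.42 for Fa2h and 3.27 for Far2. It was smaller for Awat2 (2.66), Soat1 (2.54), Scd1 (2.00) and Mgst1 (1.99). Set against the controls, MOD 2 lay below all of them for 3 genes, within their range for 3 and above all of them for 4. MOD 1 and MOD 3 both lay below all controls for 9 of the 10, all but Scd1, against 48.1% of tested genes. That count leaves out MOD 2, the highest MOD library in all 10, so it is no independent support for a fall. With all MOD libraries, 3 of the 10 lay below all controls, against 44% of tested genes.

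Markers of other cell types were compared between the MOD libraries in the same way. The sebocyte receptor Mc5r stood at 3.81, 8.72 and 5.27 TPM in MOD 1 to 3. Of the 15 adipocyte markers 14 were highest in MOD 2, with a median ratio of 1.76 and a range of 0.929 to 2.25; their summed level was 10254 TPM in MOD 1, 14532 TPM in MOD 2 and 7281 TPM in MOD 3, against 7133 to 7927 TPM in CON. The fat cell genes Adipoq and Plin1 were abundant in all libraries (225 to 595 TPM and 104 to 242 TPM). All 9 macrophage markers, with 6 of 9 highest in MOD 2, had a median ratio of 1.24, the 6 basal keratinocyte markers 0.942 with 0 of 6 highest in MOD 2, the 5 skeletal muscle markers 0.742 and the 7 tested neutrophil markers 0.450. Between the groups, 4 of 5 muscle markers rose (2 with the H2-Ea term), with sums of 2498 to 8494 TPM among controls against 16822 to 25925 TPM in MOD. All 7 tested neutrophil markers rose (6 with the H2-Ea term), with sums of 26.9 to 76.8 TPM among controls against 2427 to 7569 TPM in MOD. Among all tested genes 12.5% rose in the fit without that term and 4.35% in the fit with it. The part of these cell type markers in the pattern and in the lower TPM shares of the 10 genes was not tested.

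**Figure D3:**
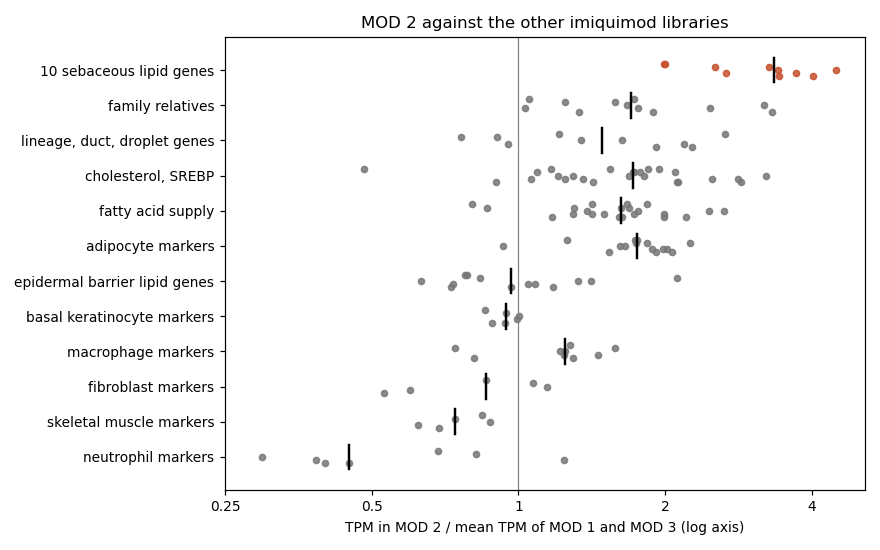
TPM in MOD 2 divided by the mean TPM of MOD 1 and MOD 3 (x axis, log scale) for tested genes of each list, 1 point per gene, with a black line at the list's median. The 10 sebaceous lipid genes (red) lie between 1.99 and 4.50 with a median of 3.34, the adipocyte markers have a median of 1.76 and the basal keratinocyte markers one of 0.942.

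The controls differed too. CON 1 was the lowest control for 6 of the 10 genes (Awat1, Far2, Scd1, Fa2h, Soat1 and Mgst1), and the highest for 2, Awat2 and Dgat2l6. CON 2, with H2-Ea at 0, was the highest for 5. Summed over 11 hair shaft and root sheath markers, CON 1 held 15550 TPM, CON 2 5813 TPM and CON 3 3019 TPM, against 0.82 to 2.03 TPM in MOD; Krt71, a keratin of the inner root sheath, was between 0.03 and 0.19 TPM in MOD and between 533 and 3905 TPM in CON. The part of this difference in the results for the 10 genes was not tested.

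Ratios within a library do not depend on how libraries are scaled, and are given for Scd1 against 4 other members. Scd1 was 21.3, 85.1 and 30.0 times as abundant as Awat2 in CON and 601, 305 and 285 times in MOD, on the TPM scale. Against Scd3 it was 17.5, 60.9 and 6.49 times as abundant in CON and 270, 129 and 179 times in MOD, and against Awat1 13.7, 20.6 and 17.3 times in CON and 113, 48.1 and 81.1 times in MOD. The groups did not overlap in any of these 3 ratios. The ratio of Scd1 to Elovl3 did overlap, at 7.22, 10.4 and 9.92 in CON and 21.6, 10.2 and 16.3 in MOD. These ratios were chosen after the values were seen and are given with no test.

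In the summed TPM of the 10 genes, Scd1 made up 43.1, 51.7 and 39.0% in CON and 64.1, 57.8 and 61.1% in MOD. Fa2h made up 5.98, 10.1 and 11.8% in CON and 3.06, 6.22 and 5.08% in MOD. Scd3 made up 2.47, 0.849 and 6.02% in CON and 0.237, 0.447 and 0.341% in MOD. The sum itself was 2151, 3929 and 3242 TPM among the controls and 2372, 4605 and 1873 TPM in MOD, so it overlapped between groups. Without Scd1 it was 1223, 1896 and 1976 TPM among the controls and 852, 1944 and 729 TPM in MOD. In both sums MOD 2 lay among or above the controls.

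**Figure D4:**
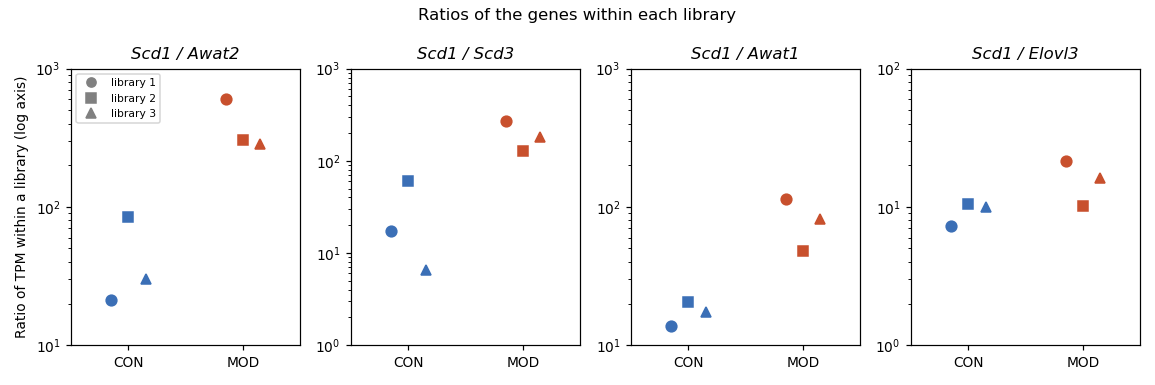
Ratio of Scd1 to Awat2, Scd3, Awat1 and Elovl3 in each library (y axis, log scale), CON in blue and MOD in red, 1 symbol per library number. The MOD libraries lie above all CON libraries for the first 3 ratios, at 285 to 601 against 21.3 to 85.1 for Awat2, and overlap with them for Elovl3.

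As a measure of likeness over the 6 libraries, the Euclidean distance between log2(TPM + 1) profiles, each centred on its own mean, was used. Soat1 and Mgst1 were closest to each other (distance 0.56), Far2 and Fa2h likewise (0.63), and Awat2 and Scd3 likewise, at a larger distance (1.55). Outside the 10, the 5 genes closest to Scd1 were Cebpa (0.44), Proca1 (0.48), Plin2 (0.49), Acss2 (0.49) and Clmp (0.495). Cebpa encodes a transcription factor of fat cells and sebocytes, Plin2 a coat protein of lipid droplets, and Acss2 an enzyme that makes acetyl-CoA from acetate. Plin2 stood at 141, 259 and 204 TPM among the controls and 186, 293 and 173 TPM in MOD.

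Other genes of the gland's lineage, duct and lipid droplets were taken from a list. Of 11 listed, 10 were tested, 3 fell and 0 rose, with a median log2 difference of -0.57. Among all tested genes 36.1% were lower and 12.5% higher, so 3 of 10 is close to the background. Krt79, a keratin of the sebaceous duct, fell from 447, 736 and 687 TPM to 153, 416 and 214 TPM (log2 difference -1.35, limma adjusted p = 0.026), with MOD 2 again the highest MOD library. Mc5r fell from 12.6, 10.45 and 15.3 TPM to the MOD values given above (-1.04, adjusted p = 0.022). Lrig1, a marker of stem cells at the gland's junction with the follicle, fell from 44.5, 50.3 and 40.8 TPM to 22.4, 25.7 and 31.6 TPM (-0.75, adjusted p = 0.010), and there MOD 3 was the highest. Without MOD 2, 4 fell, and without MOD 1 or without MOD 3, 1 fell. With the H2-Ea term 1 fell and 0 rose, under median-of-ratios scaling 1 fell and 1 rose, and without CON 3, 1 rose. Of all tested genes, 17.9% fell with the term and 18.7% under the scaling. Krt79 and Mc5r lost their calls with the term (limma adjusted p = 0.078 and 0.18) and under the scaling (0.069 and 0.083). Lrig1 kept its call in both fits (0.042 and 0.047). Pparg, a nuclear receptor needed for sebocyte maturation, did not pass (35.7, 44.6 and 39.8 TPM in CON, 41.3, 79.0 and 30.7 TPM in MOD, adjusted p = 0.60).

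Of 16 family relatives of the 10 genes, 12 were tested, 4 fell and 1 rose. These counts are close to the background of 36.1% of all tested genes lower and 12.5% higher. Elovl6, the elongase of saturated palmitate, fell from 149, 291 and 212 TPM to 39.1, 149 and 54.2 TPM (log2 difference -1.60, limma adjusted p = 0.035), and Elovl7 fell as well (-1.31, adjusted p = 0.011). The glutathione transferase relatives of Mgst1 went opposite ways: Mgst2 rose from 14.8, 19.02 and 20.9 TPM to 40.2, 54.8 and 42.2 TPM (1.28, adjusted p = 0.0030) and Mgst3 fell from 178, 142 and 206 TPM to 98.3, 91.0 and 77.9 TPM (-0.96, adjusted p = 0.0055). Dgat2, the triglyceride synthase related to the acyltransferases that fell, did not pass (154, 261 and 122 TPM in CON, 287, 442 and 182 TPM in MOD, adjusted p = 0.16). The count lower was 2 with the H2-Ea term, 1 under median-of-ratios scaling, and 2 without CON 2, MOD 1 or MOD 3. Of all tested genes, 17.9% were lower with the term and 18.7% under the scaling. Elovl6 and Mgst3 lost their calls with the term (limma adjusted p = 0.076 and 0.061) and under the scaling (0.080 and 0.057). Elovl7 lost its call with the term (0.055) and kept it under the scaling (0.031).

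Of 22 genes of fatty acid and triglyceride supply 6 rose and 6 fell, with a median log2 difference of 0.19. Among all tested genes 12.5% rose and 36.1% fell. Thrsp, a regulator of lipogenesis, rose from 149, 252 and 81.1 TPM to 510, 992 and 489 TPM (2.11, limma adjusted p = 0.0099), and Lpin1, which makes diacylglycerol, rose from 8.11, 13.8 and 8.37 TPM to 30.98, 37.5 and 19.2 TPM (1.44, adjusted p = 0.0087). Fads2, a desaturase that introduces a different double bond from the Scd enzymes, fell from 51.6, 32.5 and 37.9 TPM to 8.07, 7.92 and 11.7 TPM (-2.02, adjusted p = 0.0016), and Acsl3, an acyl-CoA synthetase, fell by 1.45 on the log2 scale (adjusted p = 0.0017). With the H2-Ea term 0 rose and 2 fell, where 4.35% of all tested genes rose and 17.9% fell. Under median-of-ratios scaling 8 rose and 3 fell, with a median of 0.54, where 20.2% of all tested genes rose and 18.7% fell. Under quantile normalization 6 rose and 3 fell, where 2818 and 3177 of the 15323 tested genes did. The adipocyte markers, whose cells also make fatty acids, had a median of 0.47, and 1 of 15, Slc2a4, rose. Unlike the other 14, Slc2a4 was not highest in MOD 2 (ratio 0.929 to the other MOD libraries). The count of adipocyte markers that rose was 7 without MOD 3, 2 without CON 3 and 5 under median-of-ratios scaling. Of all 15323 tested genes, 1543, 1729 and 3097 rose in those fits.

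Of 25 genes of cholesterol synthesis and its SREBP control 14 fell and 0 rose, with a median log2 difference of -0.86. Among all tested genes 36.1% fell and 12.5% rose. Insig2, which holds the SREBP regulators back, fell from 168, 147 and 106 TPM to 28.6, 43.5 and 27.7 TPM (-2.05, limma adjusted p = 0.0017). Sqle (-1.48, adjusted p = 0.0075), the regulator Srebf2 (-1.46, adjusted p = 0.0018) and Hmgcs1 (-1.31, adjusted p = 0.012) fell as well. Here too MOD 2 was the highest MOD library for 21 of 25, with a median ratio of 1.72 to the other MOD libraries. The count was 20 without MOD 2, 8 with the H2-Ea term and 10 under median-of-ratios scaling. In those fits 26.9%, 17.9% and 18.7% of all tested genes fell. MOD 2 was picked from the values of the 10 sebaceous lipid genes, so the count without it gives no independent support. Of 13 epidermal barrier lipid genes 5 fell and 0 rose, close to the 36.1% of all tested genes lower. Cers3, Pnpla1, Cyp4f39 and Smpd1 fell by the most (-1.37, -1.17, -1.07 and -0.95, limma adjusted p = 0.049, 0.030, 0.042 and 0.0019). Cers3, Pnpla1 and Cyp4f39 lost their calls under median-of-ratios scaling (adjusted p = 0.11, 0.077 and 0.12). MOD 2 was the highest MOD library for 5 of 13 barrier genes, with a median ratio of 0.966. The barrier count was 2 without CON 2, MOD 1 or MOD 3, 3 without CON 1 or MOD 2, and 1 with the H2-Ea term; without CON 2, 1 barrier gene rose. Under median-of-ratios scaling 1 barrier gene fell and 3 rose, where 18.7% of all tested genes fell and 20.2% rose. Under quantile normalization 1 fell and 2 rose, where 3177 and 2818 of the 15323 tested genes did. The balance of the barrier list thus turned with the scaling, as did that of all tested genes under median-of-ratios scaling.

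Macrophages and Schwann cells also use members. Of 9 macrophage markers 8 rose and 0 fell, and 3 rose with the H2-Ea term, where Csf1r did not pass (limma adjusted p = 0.087). Among all tested genes 12.5% rose and 36.1% fell in the fit without that term, and 4.35% rose and 17.9% fell in the fit with it. Csf1r stood at 24.9, 44.4 and 14.4 TPM among the controls and at 76.7, 94.6 and 78.9 TPM in MOD. Summed over the lists, macrophage markers were 344 to 1229 TPM among the controls and 2517 to 3674 TPM in MOD, and Schwann cell markers 213 to 340 TPM and 336 to 529 TPM. Their part in the levels of Soat1 and Fa2h was not tested.

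**Figure D5:**
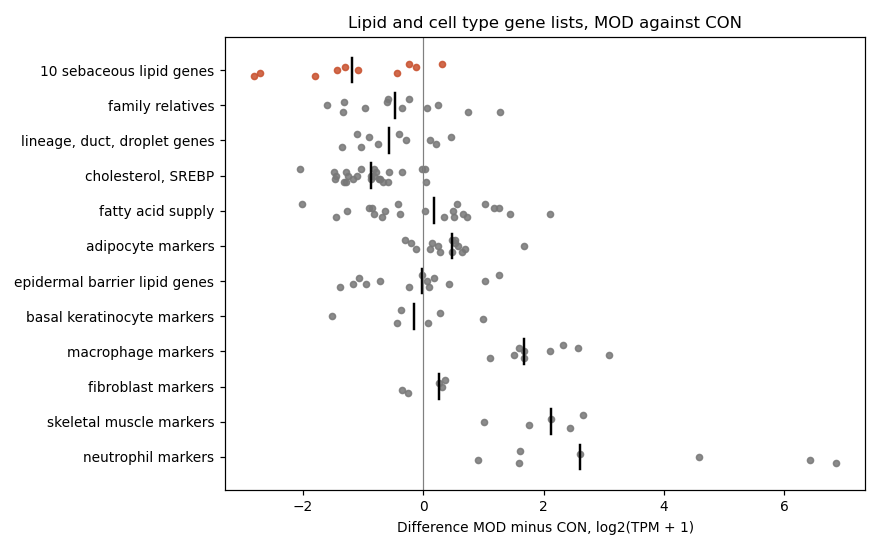
Difference MOD minus CON in log2(TPM + 1) for tested genes of each list, 1 point per gene, with a black line at the list's median. The 10 sebaceous lipid genes (red) spread from -2.81 to 0.32 with a median of -1.19, the cholesterol list has a median of -0.86 and the fatty acid supply list one of 0.19.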

How the data were processed

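Skin RNA was isolated with TRIzol, freed of genomic DNA with DNase I and turned into libraries with the SMARTER mRNA-Seq kit, per the labels' protocols. The authors deposited TPM values per gene, with gene lengths. The build is GRCm39 per the submitters' processing notes, which state no role for it; for aligner, annotation and quantification program, nothing is given in the sources used here. TPM keeps no sequencing depth, so depth is unknown and no counting interval is given. A share of a library also falls when other transcripts rise.

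Columns were matched to samples by the labels' descriptions: CON 1, CON 2 and CON 3 are columns CON1, CON3 and CON4. Genes that reached 1 TPM in 3 or more libraries (15323) were tested on log2(TPM + 1), which understates changes of low genes. The difference MOD minus CON was fitted with limma 3.58.1 in R 4.3.3 (eBayes with a mean-variance trend, Benjamini-Hochberg over all tested genes), checked on simulated data. Median log2 differences of all tested genes were -0.31 in TPM and 0.00 under median-of-ratios scaling. Exact permutation of 3 against 3 libraries cannot go below p = 0.1, so none was used for single values.

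The 10 genes and the lists were chosen with earlier results of these data known. Named genes are the 10, up to 4 genes of each lipid list with the largest change past the threshold (with 1 in the opposite direction), the 5 closest to the most abundant of the 10, and defining markers; Pparg, Dgat2, Igbp1, Otud6a, Scd2, Scd4, Slc2a4, Krt5 and Krt14 are named outside this rule or for their place. Krt85 was not analysed here. Not every listed marker is reported here. Promoters come from RefSeq (GRCm38.p6) and transcript words from GENCODE M21; gene order comes from RefSeq GRCm38.p6. The 16 alternatives changed the pseudocount, filter, scaling, trend, replicate block or H2-Ea term, or left out a library.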

Additional observations from a re-analysis of the deposited data

How the results depend on the processing

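The count of the 10 genes lower in MOD, 3 in the fit as reported, was 1 without the filter on low values, 1 with the H2-Ea term, 6 with the replicate block, and 1 to 7 when a library was left out (1 without MOD 1 or MOD 3, 7 without MOD 2). The count higher was 0 throughout. Over all genes, 5538 were lower and 1914 higher; these became 2868 and 3097 under median-of-ratios scaling, 2747 and 667 with the H2-Ea term, and 3177 lower under quantile normalization. With a library left out, 3559 to 5487 were lower and 1303 to 2025 higher. The cause of these changes was not tested. Differences that turned sign were those of Soat1 (0.23, 0.14 and 0.031 under median-of-ratios, quantile and top-20-removed scaling, and -0.56 to 0.12 with a library left out, 0.099 without CON 2, 0.085 without MOD 1 and 0.12 without MOD 3), Mgst1 (0.12 under median-of-ratios scaling, -0.57 to 0.048 with a library left out, the highest without MOD 3) and Scd1 (-0.29 with the H2-Ea term, -0.019 to 0.62 with a library left out, the lowest without MOD 2), none of which passed. Awat2 kept its call throughout, Scd3 under 12 of 16 alternatives and Awat1 under 7.

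The labels do not say whether replicate numbers shared by the groups pair the samples. Same-numbered libraries' deviations from their group means correlated at 0.0046, 0.069 and 0.066, and 2 of 3 control libraries correlated best with their own number. With 3 libraries a group, these correlations cannot show whether the samples are paired. The replicate block raised the count of lower genes among the 10 to 6, adding Dgat2l6, Far2 and Fa2h, while 5343 of all tested genes were lower under it; without the filter on low values 4580 were.

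Depth is unknown, only 3 libraries form a group, and the control split by H2-Ea leaves 1 control on the side of MOD.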

Other observations

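The pattern of MOD 2 reached beyond the 10 genes. Among 9897 named genes with a mean of at least 5 TPM both overall and in MOD, 75 were at least 2 times as high in MOD 2 as in the higher of MOD 1 and MOD 3, and 7 of these were among the 10; Dgat2l6, below 5 TPM on average in MOD, was not eligible. The genes given here were picked from the top of that ranking after their values were seen. The esterase-like genes Aadacl4 (53.3, 66.8 and 36.9 TPM in CON, 5.67, 23.3 and 2.55 TPM in MOD), Aadacl2fm2 (46.3, 61.4 and 37.8 against 8.25, 36.8 and 7.62 TPM) and Ces4a (36.6, 56.0 and 60.3 against 7.63, 26.3 and 4.93 TPM) also fell in MOD (limma adjusted p = 0.017, 0.040 and 0.017). Acox2, a peroxisomal oxidase, fell from 14.3, 15.2 and 12.1 TPM to 3.11, 10.9 and 3.07 TPM (adjusted p = 0.036). Hsd3b6, a steroid dehydrogenase, and the ceramide synthase Cers4 were also highest in MOD 2, at 4.99, 32.8 and 10.6 TPM and at 45.2, 158 and 52.4 TPM. Outside lipid genes, the immunoglobulin A heavy chain gene Igha was at 1.43, 20.03 and 4.35 TPM in MOD and at 15.3, 1.77 and 13.3 TPM in CON.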
